A study of Komagataella pastoris with 15 samples.

Results

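The comparison described here set the end of a fermentation of the methylotrophic yeast Pichia pastoris against the end of its glycerol feeding. Its members were chosen by sample title. They are 6 of the 15 arrays of the series, namely 3 titled as decreased expression of recombinant human serum albumin (rhHSA) and 3 titled as the ending of the glycerol-fed phase. The yeast, named Komagataella pastoris in the labels, was grown in fermentors of 40 L, and total RNA of fermentors 1, 2 and 3 was hybridised at 5 phases with the dye Cy3. At the glycerol end the carbon source had been withheld for 40 min and methanol feeding was about to begin. At the end of fermentation the labels put the rhHSA amount at 220 mg/L. Both groups carry the same fermentor numbers, so each culture was sampled at both phases. The strain, the construct and the promoter that drives rhHSA are not given in the sources used here. No label assigns a sampling time to a phase, so culture ages are not used here.

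Pichia pastoris can live on methanol as its only carbon source. Alcohol oxidase in the peroxisome turns methanol into formaldehyde, which is then either burned for energy or built into sugar phosphates. The genes for this pathway are shut down while glycerol or glucose is plentiful, released from that repression when the carbon source runs out, and fully induced by methanol. Processes that make a foreign protein therefore usually build biomass on glycerol, let the cells use it up, and then feed methanol. The 2 phases compared here lie on either side of the methanol feed: cells left without a carbon source for 40 min, and cells at the close of the run.

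Probes carry locus tags and no gene names in the files, and 0 of the 5039 tags matched a row of the reference table for the assembly ASM170810v1. No tag can therefore be given a gene name or function here, the pathway genes cannot be picked out, and the phase labels were not checked against marker genes. Results are given over all tags, and 4 tags, those with the largest rises and falls, are described one by one.

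The 15 arrays came from 2 scans, a scan being one run of the scanner as dated in the file headers. Scan 1 held the whole end of fermentation group together with glycerol end array 1, whereas glycerol end arrays 2 and 3 were on scan 2. The median processed signal was 9260 on glycerol end array 1, 2223 and 2693 on arrays 2 and 3, and 16022 to 17192 at the end of fermentation. On these 6 arrays 98.6% to 99.9% of spots were well above background. Tags shifted between scans with an SD of 0.73 log2 units, so phase and scan were fitted together to all 15 arrays. Each of the other 4 phases had arrays on both scans, which is what lets the scan be estimated. In all 4, however, the scan 1 array came from fermentor 1 and the scan 2 arrays from fermentors 2 and 3. Within them a shift between scans is also a shift between cultures, and these cannot be told apart there. Only the end of fermentation has all 3 fermentors on the same scan. The 3 end of fermentation arrays were close to each other, with a median SD per tag of 0.043 log2 units against 0.26 at the glycerol end, where arrays of both scans are mixed. Between 14.7% and 40.1% of probes still differed between pairs of end of fermentation arrays by more than the noise between spots (limma, unadjusted p below 0.05), as 25.7% did between glycerol end arrays 2 and 3. The share was 4.8% between logarithmic growth arrays 2 and 3, no more than the noise between spots alone gives. The fit kept them as separate arrays, and with their mean used as 1 array it called 3704 tags in the comparison below instead of 3767. An alternative below, with near-identical arrays averaged, also used the mean of glycerol end arrays 2 and 3 and that of the 3 end of fermentation arrays. It leaves 1 array at the end of fermentation and called fewer tags. The labels name separate fermentors, and a p-value measures only the spread between these arrays.

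Most of the measured transcriptome differed between the 2 phases. Of 5024 tags tested, 3767 (75%) were called by limma with scan as a term, at a Benjamini-Hochberg adjusted p below 0.05. At the end of fermentation 1470 tags (29.3%) were higher and 2297 (45.7%) were lower. Most of the called changes were modest. The median called rise was 0.71 on the log2 scale, or 1.64-fold, and the median called fall was -0.89, or 1.85-fold. A change of at least 2-fold, on top of the adjusted p, was reached by 415 tags that rose (8.26% of those tested) and 974 that fell (19.4%). At 4-fold the counts were 58 and 155, and at 8-fold 12 and 19. Over all tested tags, 46.9% differed by less than 1.5-fold. From the 5th to the 95th percentile of tags the log2 change ran from -1.78 to 1.26, and the median SE of a change was 0.11. Of the 4451 tags with a value on all 6 arrays, 3309 (74.3%) had no overlap between the 3 arrays of each phase, before any correction for scan.

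The excess of falls over rises depended on how the arrays were scaled. The values above were scaled to the 75th percentile of each array, and the median log2 change of all tags was -0.21. With median centring it was -0.18, with 1524 rises and 2249 falls. Quantile normalization forces all arrays to one distribution, and there the median was -0.01, and 1763 tags were higher and 1788 lower, or 582 and 610 at 2-fold or more. In the authors' processed values, which hold 3915 tags, the median was 0.03, and 1589 tags were higher and 1485 lower, or 495 and 456 at 2-fold or more. The direction of single tags was steadier. All 1389 tags called at 2-fold kept their direction with quantile normalization, and 1327 of them were called there. The authors' values held 1116 such tags, of which 1113 kept their direction and 1079 were called. Over tags called at any size, 32 of 3767 were called in the opposite direction with quantile normalization, and 41 of 3000 in the authors' values.

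**Figure D1:**
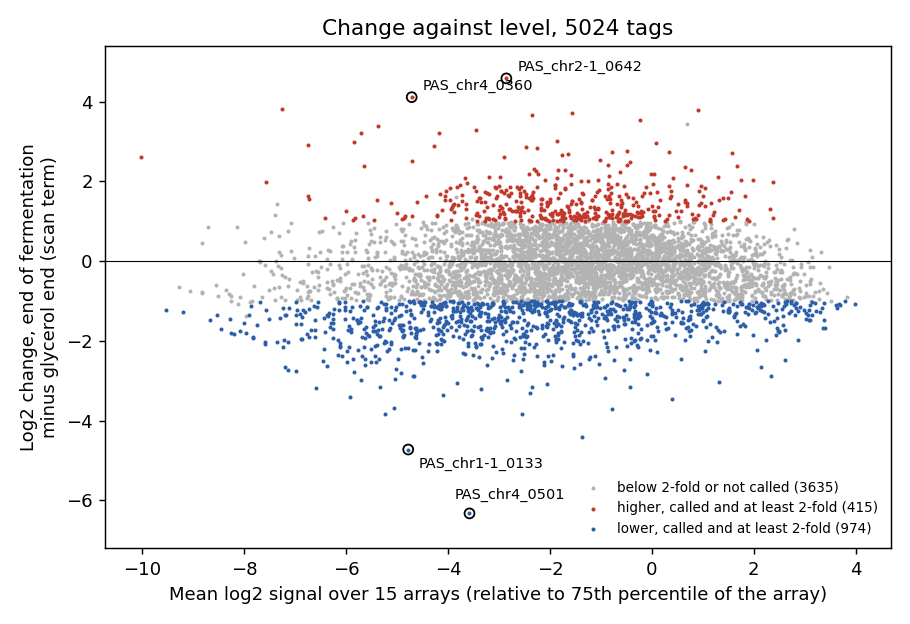
Each point is 1 of 5024 tags, with its mean log2 signal over the 15 arrays (scaled to the 75th percentile) on the horizontal axis and its fitted log2 change, end of fermentation minus glycerol end, on the vertical axis. Red marks the 415 tags higher and blue the 974 lower at 2-fold or more with an adjusted p below 0.05, and rings mark the 4 named tags. Blue points outnumber red ones most clearly on the left, among dim tags.

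With this scaling the falls were most frequent among tags of dim signal. When the tags were divided into 4 groups of 1256 by their mean level over all arrays, 32.5% of the dimmest group fell by at least 2-fold and 6.29% rose by as much. In the next 2 groups the shares were 15.7% lower and 11% higher, and then 12% lower and 9.95% higher. In the brightest group 17.4% fell and 5.81% rose. The 6 arrays compared enter this mean, so a tag's own fall moves it towards the dim end. With groups formed from the 9 arrays of the other 3 phases, an alternative chosen after seeing the data, 30.6% of the dimmest group fell and 7.8% rose by as much, and 18.5% and 5.18% of the brightest. The share called at any size, by contrast, was nearly level over the 4 groups, from 73.9% to 75.6%. The differences within scan 1, where no correction for scan enters, were again grouped by the mean over all arrays, which a tag's own fall moves. There the dimmest group had a median difference of -0.51, with 30.1% of tags at least 2-fold lower and 7.27% at least 2-fold higher.

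The array distributions moved in the same way. The 5th percentile of log2 signal lay between -6.68 and -6.45 on the 3 end of fermentation arrays and at -5.71 on glycerol end array 1. The other 3 arrays of scan 1 had values from -5.89 to -5.51. The 95th percentile was 1.82 to 1.92 at the end of fermentation and 2.17 on glycerol end array 1. After quantile normalization the dimmest group had 12.5% lower and 15.4% higher, and in the authors' processed values 13.3% lower and 14.2% higher. The preponderance of falls among dim tags was thus present with the 75th percentile, median centring (31.2% lower) and normexp background correction (24.5% lower), and absent with quantile normalization and in the authors' values. In the authors' values the 5th percentile was 8.48 to 8.52 on the end of fermentation arrays and 8.52 to 8.65 on the other 12. Which of these distributions reflects the RNA was not tested.

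**Figure D2:**
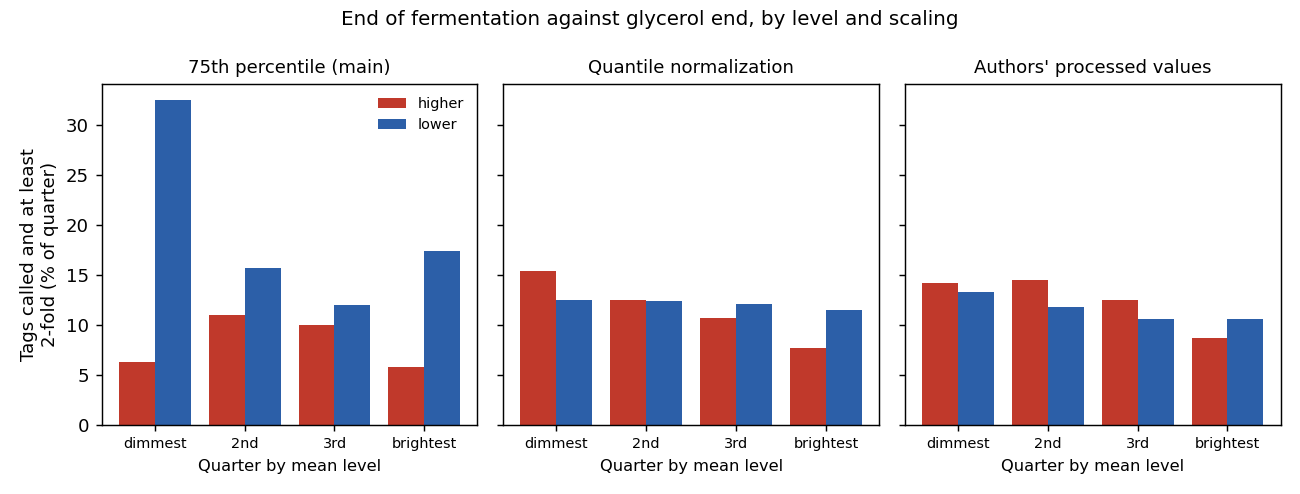
Bars give the percentage of tags called at an adjusted p below 0.05 and at least 2-fold higher (red) or lower (blue) at the end of fermentation, in 4 groups of tags ordered by mean level, under the 75th percentile scaling, quantile normalization and the authors' processed values. The tall blue bar of the dimmest group, 32.5%, has no counterpart in the other panels, where that group stands at 12.5% and 13.3%.

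The direction of the calls was the same on scan 1 alone. Among called tags with a value on glycerol end array 1, all 1468 that rose and all 2296 that fell had the same sign in the plain difference between the end of fermentation mean and that array. This difference shares its arrays with the fit, so it repeats the comparison without the scan correction and is not a second experiment. By size alone, 458 tags were at least 2-fold higher and 890 at least 2-fold lower within scan 1. Without a scan term the fit called 2772 tags, 1034 higher and 1738 lower. Of the 1470 rises called with the scan term, 1011 were also called as rises without it, and of the 2297 falls 1708. None of the tags called by both fits had opposite signs, but over all 5024 tags the sign differed between the fits in 723. Across tags the unblocked change correlated with the scan difference (scan 1 minus scan 2) at r = 0.42, and the change with the scan term at r = -0.031 (5024 tags, which share arrays and are not independent replicates). The r of 0.42 follows from the layout, since part of the scan difference enters the unblocked change. It is therefore no test of the scan term.

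The largest rise was that of PAS_chr2-1_0642. Its log2 signal, scaled to that percentile, was -4.32, -3.69 and -3.66 on glycerol end arrays 1 to 3, and 0.29, 0.39 and 0.20 at the end of fermentation. The groups did not overlap, and each late array was far above every early one. No overlap and the same sign within scan 1 were required of the 4 named tags, so neither is a result about them. The fit gave a rise of 4.59 ± 0.11 (SE), 24.02-fold on a linear scale (limma adjusted p = 1.52e-11). On scan 1 alone it was 4.61. In the other 3 phases its signal stayed between -4.19 and -3.17 on each of the 9 arrays, so it was high at the end of fermentation alone. In the authors' deposited table its log2 value was 10.2 on each glycerol end array and 14.9 to 15.2 at the end of fermentation.

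PAS_chr4_0360 had the second largest rise. It read -6.59, -4.59 and -4.73 at the glycerol end and -2.49, -2.62 and -2.46 at the end of fermentation. All 3 late arrays were higher than any early one, but the early arrays were split by scan, with the scan 1 array far below the others. The fitted change was 4.11 ± 0.077 (SE), or 17.3-fold (limma adjusted p = 6.45e-12), and 4.06 within scan 1. Without a scan term it was 2.78 ± 0.78 (SE; limma adjusted p = 0.00933), since the tag read 2.00 log2 units higher on scan 2. On scan 1 it read -7.02 in logarithmic growth, -5.99 in methanol-adapted cells and -6.77 on the array labelled as the rhHSA peak, so there too the end of fermentation stood alone. These 2 tags were the only ones called with a rise of at least 16-fold.

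The largest fall was that of PAS_chr4_0501. Its log2 signal was 0.36, -1.63 and -1.55 at the glycerol end, and -5.66, -5.98 and -5.89 at the end of fermentation. The groups were far apart, although the early arrays were split by scan, with the scan 1 array the highest. The fitted change was -6.33 ± 0.32 (SE), an 80.2-fold fall (limma adjusted p = 5.24e-09). It was -6.20 within scan 1, -4.90 without a scan term, -5.74 with quantile normalization and -5.76 ± 0.54 (SE) with normexp background correction. At the end of fermentation 92.6% of tags were at least as bright, so here too the size is less certain than the direction. This tag differed among the other phases as well. On scan 1 it read -2.61 in logarithmic growth, 0.18 in methanol-adapted cells and -4.27 on the array labelled as the rhHSA peak. Its high level was thus shared by the glycerol end and methanol adaptation.

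PAS_chr1-1_0133 had the second largest fall. It read -3.63, -3.73 and -3.79 at the glycerol end, where the scans differed little, and -7.94, -8.32 and -8.19 at the end of fermentation. The late signal was lower on all 3 arrays than on any early one, yet all spots of the tag were called well above background. The fitted change was -4.72 ± 0.21 (SE), or 26.4-fold (limma adjusted p = 1.64e-09), with -4.52 within scan 1 and -3.95 with quantile normalization. In the other 3 phases its signal lay between -4.92 and -3.23. At so low a late signal the size of the fall is less certain than its direction.

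**Figure D3:**
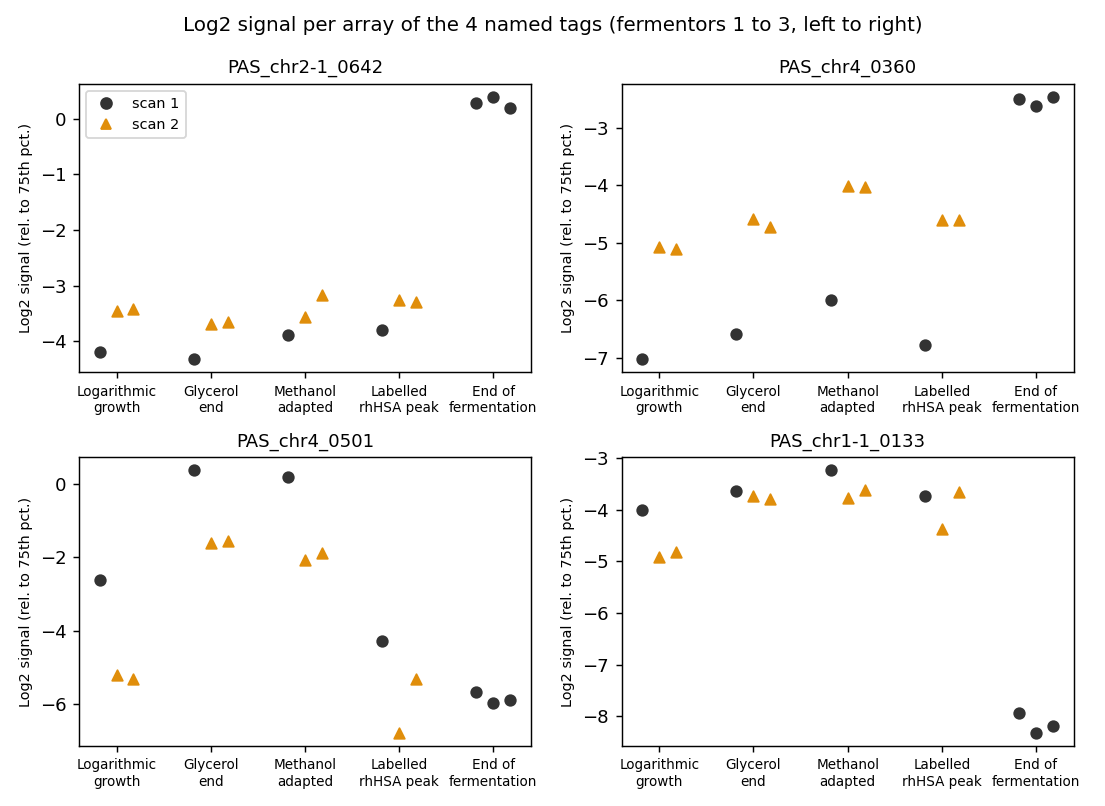
Log2 signal of each of the 15 arrays (scaled to the 75th percentile) for the 4 named tags, by phase, with fermentors 1 to 3 from left to right, black circles for scan 1 and orange triangles for scan 2. PAS_chr2-1_0642 and PAS_chr4_0360 are high, and PAS_chr1-1_0133 low, at the end of fermentation alone, while PAS_chr4_0501 is high at the glycerol end and in methanol-adapted cells.

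The other phases were used to describe on which side the difference lies, in tags chosen by this same difference. The fitted phase levels, put on the scale of scan 1, were ordered for each tag, as a description with no test. Among the 415 tags higher at 2-fold or more, the end of fermentation was the highest of the 5 phases in 326 (78.6%), and the glycerol end was the lowest in 136 (32.8%). Both held in 90 tags, and neither in 43. Among the 974 tags lower by as much, the end of fermentation was the lowest phase in 853 (87.6%) and the glycerol end the highest in 375 (38.5%). Both held in 304 tags, and neither in 50. Over all 5024 tags the end of fermentation was highest in 20.2% and lowest in 34.6%, and the glycerol end was highest in 18.3% and lowest in 9.28%. A tag called higher cannot have the end of fermentation as its lowest phase, so these shares are above the overall ones in part by construction, and they do not apply to all tags.

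In these tags the other 3 phases mostly lay nearer to the starved glycerol end than to the late culture, again as a description. Of the 415 tags that rose, the methanol-adapted level was nearer to the glycerol end in 354 and nearer to the end of fermentation in 61. Of the 974 that fell it was nearer to the glycerol end in 747 and to the end of fermentation in 227. For logarithmic growth the counts were 247 and 168 among rises, and 646 and 328 among falls. For the arrays labelled as the rhHSA peak they were 294 and 121, and 742 and 232. In the tags that rose, the median level was -2.14 at the glycerol end, -1.89 in methanol-adapted cells, -1.94 in the labelled peak and -1.51 in logarithmic growth, against -0.62 at the end of fermentation. In the tags that fell, it was -1.73 at the glycerol end, -1.92 in methanol-adapted cells, -2.12 in the labelled peak and -2.37 in logarithmic growth, against -3.34 at the end of fermentation. In the 3635 tags not called at 2-fold, the medians of the 5 phases lay between -1.34 and -1.26.

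**Figure D4:**
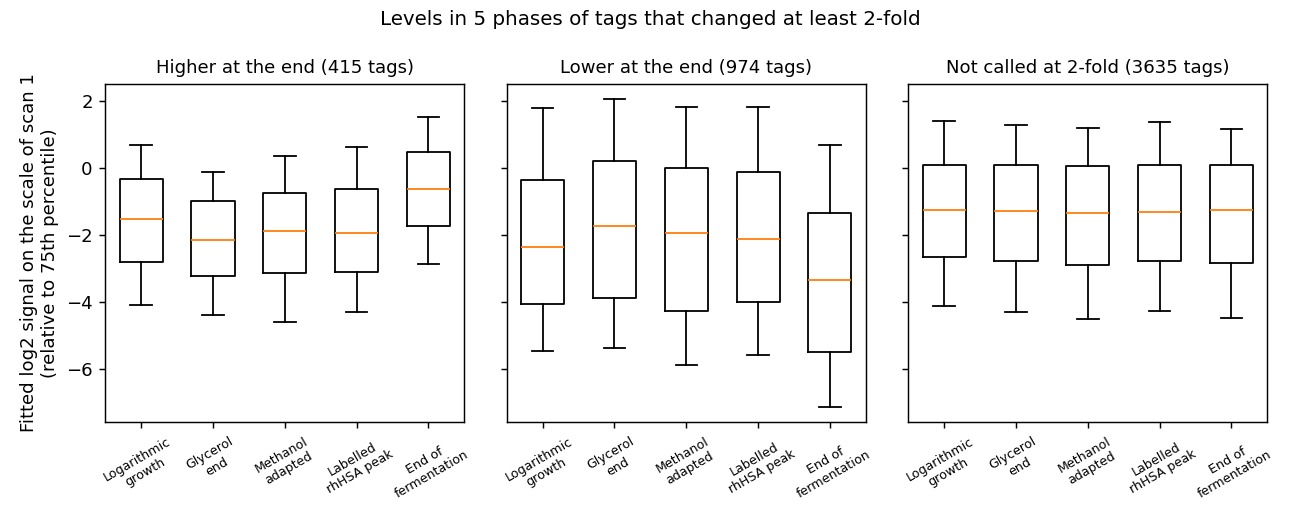
Fitted log2 level on the scale of scan 1 in each phase, for the 415 tags higher, the 974 lower and the 3635 not called at 2-fold at the end of fermentation against the glycerol end. Boxes give the quartiles with the median as a line, and whiskers run from the 10th to the 90th percentile of tags. For tags higher and lower the end of fermentation has the most extreme median, -0.62 and -3.34, but its box overlaps those of the other 4 phases.

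The change from the starved glycerol end to the end of fermentation was also set against the change from logarithmic growth to methanol adaptation, a pair of phases with which it shares no array. The difference between the 2 changes was called for 3925 tags (78.1%) by limma with the scan term, and at a size of at least 2-fold for 1108 tags in which the late change was the more positive and 1287 in which it was the more negative (together 47.7%). In 318 of the 5024 tested tags both changes were called at 2-fold or more, went in opposite directions, and differed in this test. The last condition nearly follows from the others. Of the 318 tags, 122 rose late and fell on methanol, and 196 fell late and rose on methanol. PAS_chr4_0501 belonged to the latter, with a log2 change of 3.11 on methanol against -6.33 late. PAS_chr2-1_0642 changed by 0.15 from logarithmic growth to methanol. Tags called with both changes in the same direction were not counted in this fit. By size alone on separate scans, 54 of 4676 tags were at least 2-fold higher in both changes and 144 at least 2-fold lower in both. Opposite directions were seen in 124 tags higher late and 189 lower late.

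Kept to separate scans, the 2 changes had a weak negative correlation over tags, which is no finding by itself. Across 4676 tags the change on scan 1 (end of fermentation minus glycerol end array 1) correlated with methanol-adapted minus logarithmic growth on scan 2 at Pearson's r = -0.13 and Spearman's rho = -0.14. Tags share arrays and cultures, fermentors 2 and 3 gave arrays to both changes, and the logarithmic growth side rests on 2 nearly identical arrays. The r stayed between -0.17 and -0.13 in the 4 other scalings, namely median centring, quantile normalization, normexp and the authors' values. Of 436 tags at least 2-fold higher late, 12.4% were at least 2-fold higher on methanol and 28.4% lower, against 12.9% and 20% of all tags. Of 835 tags at least 2-fold lower late, 22.6% were higher on methanol and 17.2% lower. Against the labelled rhHSA peak minus logarithmic growth on scan 2, r was -0.27 over 4421 tags, and against the labelled peak minus methanol adaptation -0.014 over 4373.

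**Figure D5:**
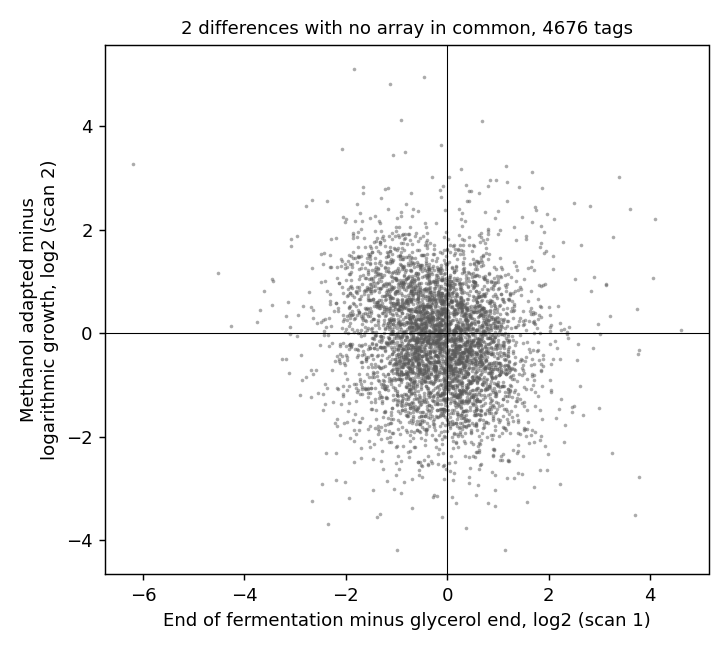
Each point is 1 of 4676 tags, with the log2 difference between the end of fermentation and glycerol end array 1 on scan 1 (horizontal) and that between methanol-adapted cells and logarithmic growth on scan 2 (vertical). The cloud has no clear slope (r = -0.13) and spreads to both sides of 0 on each axis.

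Calls were found under every tag prefix. The prefix of a locus tag names the piece of the assembly on which the gene was numbered. In the 7 prefixes beginning with PAS_chr, with 289 to 1175 tested tags each, 74.3% to 77.2% of tags were called, against 75% over all tags. The share at 2-fold or more ran from 25.5% for PAS_chr2-2 to 30.4% for PAS_chr1-3, against 27.6% over all tags. The small prefixes PAS_FragB, PAS_FragD, PAS_c121 and PAS_c131, with 18 to 69 tested tags each, had 20% to 33.3% at 2-fold or more. No test was made of these shares, and those of the 7 large prefixes lay near the share over all tags.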

How the data were processed

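Cy3-labelled cRNA from total RNA was hybridised to Agilent arrays with 3 spots per probe. The deposited intensity values are linear and background-subtracted array by array; per the file headers Feature Extraction 10.7.3.1 was used, whereas the submitters' processing notes name version 9.1. The authors also deposited log2 values for 3915 tags. Column medians were 12.6 to 12.7 and columns correlated with the matching arrays at r from 0.983 to 0.988, so scale and direction are known. The method of centring, and how scan was treated, are not stated. The split by scan seen in PAS_chr4_0360 is absent there, with 8.49, 8.48 and 8.32 on glycerol end arrays 1 to 3. Its change was 4.34 with a scan term and 4.33 without, and 3074 and 3202 tags were called.

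From the scanner files, log2 processed signal minus the 75th percentile of the array was averaged over the spots of a probe, without spots flagged as outliers, which left 2.27% of values missing, and the fit used the arrays with a value (all 15 for the named tags). Saturated spots (at most 8 per array) were kept. A tag counted as above background on an array if at least 2 spots were, and was tested if that held for every array of some phase (5024 of 5039). Phase and scan were fitted with limma 3.58.1 in R 4.3.3 (eBayes, Benjamini-Hochberg). On simulated data of 3991 tags, this fit recovered 71.6% of changes of 0.5 log2 units in this comparison, 94% of 1 and 100% of 2 (67 tags each), and called 14 unchanged tags. The simulated noise was independent between arrays and drawn from the fit's own spread. Phases were otherwise equal and few tags were changed, whereas 75% were called in the data. The simulation checks the fit under its own assumptions, and its rates need not hold for the data.

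Fermentor numbers in the labels pair the samples by culture. Residuals of same-numbered arrays of the 2 phases correlated at r = -0.068, -0.025 and -0.053 across tags. The fermentor was fitted as a replicate block as an alternative. In the 4 phases on both scans, fermentor 1 alone was on scan 1, so this block overlaps with scan there. Named tags are the 2 largest rises and 2 largest falls among called tags with 6 values, no overlap and the same sign within scan 1. Gene lists were not run, since no tag had a name. The comparison, the lists and the tests were chosen with earlier results of these data known. The normexp alternative used median spot signals. Plots used matplotlib 3.10.9 under Python 3.11.15. The number of arrays limits the precision.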

Additional observations from a re-analysis of the deposited data

How the results depend on the processing

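The 4 named tags kept direction and call in all 128 pairs of tag and alternative. They were chosen as the largest changes on the same arrays, so this was largely fixed by the choice and is no independent support. The 3767 calls became 1389 at 2-fold or more by construction and otherwise ran from 2772 without a scan term and 2773 with near-identical arrays averaged to 4180 with the 6 arrays alone. They numbered 3360 with fermentor as a replicate block plus the scan term and 3515 with that block alone, and no call on a named tag changed with the pairing. On scan 1 alone 4169 were called, with each lone array assumed to vary like the end of fermentation arrays.

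The authors' values hold 3915 tags and the other fits here 5024, so their counts are not directly comparable. Lower calls numbered 1485 in the authors' values. Lower calls at 2-fold numbered 610 with quantile normalization, and 456 and 458 in the authors' values with and without a scan term. The share of calls that were higher, 39.0%, was 37.3% without a scan term, 41.3% with 6 arrays, 41.5% on scan 1, 37.1% with near-identical arrays averaged, 40.9% with normexp, 49.6% with quantile normalization, and 51.7% and 51.4% in the authors' values with and without a scan term. The end of fermentation was highest in 84.4% of 2-fold rises without a scan term and 85.2% with the fermentor as a replicate block alone. It was lowest in 84.9% of 2-fold falls with quantile normalization and in 82.7% and 83.0% in the authors' values with and without a scan term. The glycerol end was lowest in 40.2% of rises with quantile normalization. It was highest in 32.6% of falls on scan 1, 34.8% with quantile normalization, and 35.3% and 35.4% in the authors' values with and without a scan term. The cause of these shifts was not tested.

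Leaving out 1 array gave 3415 to 3910 calls. The share higher was then 36.6% to 39.6%, and the glycerol end was highest in 37.2% to 43.4% of falls. Without glycerol end array 1, the only one on the scan of the late arrays, these were 3415 calls, 36.6% and 43.4%. Averaging logarithmic growth arrays 2 and 3 alone, chosen after seeing the data, gave 3704 calls, and 3758 in place of 3925 for the difference between the 2 changes. That difference was called for 2825 to 4257 tags over its alternatives. Nearly all spots were above background, and normexp background correction gave 3248 calls. With only the 4935 tags well above background on all 15 arrays, 3717 were called, and with no filter on dim tags 3775. These filters add or remove few tags, and how far low signal affects the calls was not tested further.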
